A study of Homo sapiens with 9 samples.

Results

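The comparison described here is that of 48H of TMAO with untreated control (CTRL) in HMEC-1, over 14740 genes of the 29740 in the deposited count table, which are those that passed an expression filter (edgeR's filterByExpr). HMEC-1 is an established line of human dermal microvascular endothelial cells, immortalised for culture, and TMAO (trimethylamine-N-oxide) is a metabolite made in the liver from a product of gut microbes. RNA was sequenced in 3 groups of 3 libraries: CTRL, 50 µM TMAO for 24H and 50 µM TMAO for 48H. During treatment the cells were kept in medium with little serum. The 3 CTRL libraries came from controls that the authors pooled over both time-points, so that the time in culture of a CTRL library is not known and the effect of TMAO cannot be told apart from that of time in culture. The replicates carry numbers from 1 to 3. The study's methods speak of independent experiments in general, without saying which cultures the RNA libraries came from. The p-values set the difference between groups against the spread between libraries, estimated from all 9 of them, TMAO 24H included.

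Endothelial cells line the vessel wall, make the basement membrane beneath them, and decide with adhesion molecules and chemokines which leukocytes leave the blood. Interferons act on such cells through STAT and IRF transcription factors, which bind a short element in the promoters of antiviral genes (the interferon-stimulated response element, ISRE) and raise a shared set of effectors. TGF-β signalling, in contrast, is known for driving the genes of collagens and of other matrix proteins.

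Total counts ranged from 29160868 to 30069548 in the CTRL libraries and from 25205756 to 32563494 at 48H, and ribosomal RNA took between 1.64% and 7.46% of them. All 13 endothelial markers were expressed, and VE-cadherin (CDH5), the adhesion molecule of endothelial junctions, measured 22733, 21783 and 19149 normalised counts in CTRL replicates 1 to 3 and 16795, 17655 and 18633 at 48H. Normalised counts are counts divided by the library size after TMM scaling, and every level below is given in them. Of 11 epithelial markers, 10 were also expressed, whereas the defining leukocyte genes were nearly absent (10 of 12 markers did not pass the filter, at 0 to 12 counts per library).

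TMAO 48H replicate 3 stood apart from the other libraries of the comparison. On the first principal component of the 500 most variable genes, which held 37.4% of the variance, it lay at 27.7, against -12.4 to -2.30 for the other 5. In that library, 39 genes lay at least 4-fold below each of the other 8 libraries of the series, against 0 to 4 genes in the others. Of the 39, 0 were called in the comparison with CTRL. TMAO 24H replicate 1, which enters the estimate of the spread, held 44 genes at least 4-fold above each other library and 31.5% ribosomal RNA. Keratin 5 (KRT5), a filament protein of basal keratinocytes, measured 881, 1228 and 1630 in CTRL and 1470, 1118 and 125 at 48H. Keratin 14 (KRT14), its partner, measured 681, 763 and 1067 in CTRL and 1021, 801 and 67.9 at 48H. The epithelial adhesion molecule EPCAM measured 221, 202 and 244 in CTRL and 289.8, 205 and 38.0 at 48H. These 3 genes, which were chosen after their values were seen, were low in replicate 3 alone and did not differ between the groups by the test (adjusted p = 0.643, 0.701 and 0.691).

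The response at 48H was narrow. A gene was called when it changed by 1.4-fold or more and its p-value in edgeR's quasi-likelihood test, adjusted by Benjamini-Hochberg, was under 0.05. This held for 265 genes (1.8% of those tested), 130 higher (0.882%) and 135 lower (0.916%). Log2 fold changes had a median of 0.00396, with quartiles at -0.113 and 0.106, and 79.6% lay within 0.25 of no change. At any fold, 1537 genes (10.4%) had an adjusted p-value under 0.05, 757 higher (5.14%) and 780 lower (5.29%), so that most of the detectable differences were smaller than 1.4-fold. In each called gene, the 3 TMAO 48H libraries lay on one side of the 3 CTRL libraries. So they did in 27.8% of all tested genes (14.7% above and 13.0% below). Separate groups in a called gene below are therefore a description and no further support for it. Of the called genes, 20 rose and 26 fell by 2-fold or more.

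The counts depended on single libraries. Without TMAO 48H replicate 3, 339 genes (2.27%) were called, 131 higher (0.879%) and 208 lower (1.4%), of which 220 had been called with it. The number of genes called higher was 78 without TMAO 48H replicate 2 and 79 without CTRL replicate 2. The same thresholds were applied in 21 other fits, which changed the tool, the scaling, the filter or the correction or left out a library, and 116 genes (50 higher and 66 lower) were called in all of them.

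**Figure D1:**
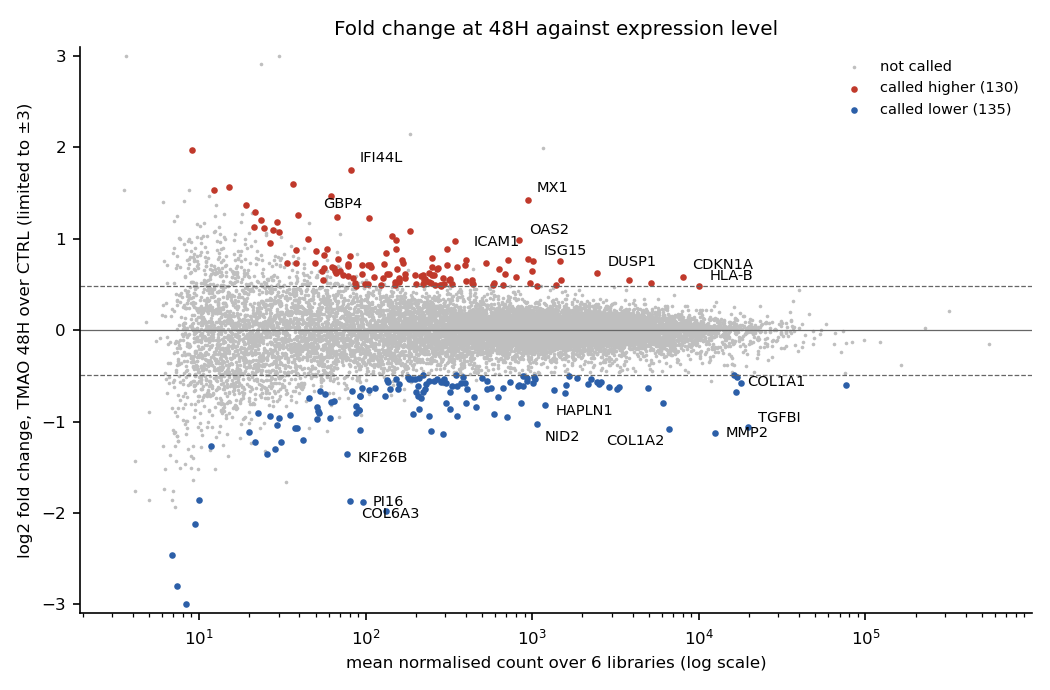
Log2 fold change of each tested gene at 48H over CTRL (y axis, limited to ±3) against its mean normalised count over the 6 libraries (x axis, log scale), with the 1.4-fold limits as dashed lines. Of the 265 called genes, the 130 higher (red) had a median of 159 normalised counts and the 135 lower (blue) of 240, against 749 for all genes (grey).

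Called genes were mostly of low to middling expression, with a median of 159 normalised counts among those that rose and 240 among those that fell, against 749 over all tested genes. Among the most abundant decile of genes, 3 were called higher and 10 lower. This holds for the 1.4-fold threshold. At any fold, 99 genes of that decile were higher and 167 lower at an adjusted p-value under 0.05. In decile 3 from the lowest, where the called share was largest (4.82%), these numbers were 49 and 43. Proteins were encoded by 125 of the called genes that rose and 113 of those that fell (13102 protein-coding genes were tested), and of 603 long non-coding RNAs 2 rose and 8 fell. The called share was thus alike, at 1.82% of protein-coding genes and 1.66% of long non-coding RNAs, against 1.8% of all tested genes.

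Fold changes at 48H depended on the GC content of the transcript. Over the 13861 tested genes (94.0%) whose GC content could be read from a reference transcript, the log2 fold change fell as GC content rose (Pearson's r = -0.217, Spearman's rho = -0.34, across genes, which are not independent replicates). In the decile of genes with the lowest GC content, the median log2 fold change was 0.0804, and 169 genes were higher and 23 lower at an adjusted p-value under 0.05. In the decile with the highest GC content, the median was -0.118, with 24 higher and 209 lower. The trend was measurable in each treated library. The slope of its log2 ratio to the mean of the 3 CTRL libraries was -0.0830, -0.0769 and -0.0517 per 10% of GC in TMAO 48H replicates 1 to 3. Each CTRL library was set against the mean of the other CTRL libraries, which gave -0.0245, 0.0297 and -0.00522. The treated libraries all lay below the CTRL libraries, with a 2-sided exact permutation p of 0.1, the smallest that 3 libraries against 3 can give. Since the reference depended on the group, this p is only a description, as is that for transcript length. Transcript length showed a weaker relation (Pearson's r = 0.0923), and its slopes overlapped between the groups (exact permutation p = 0.7).

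**Figure D2:**
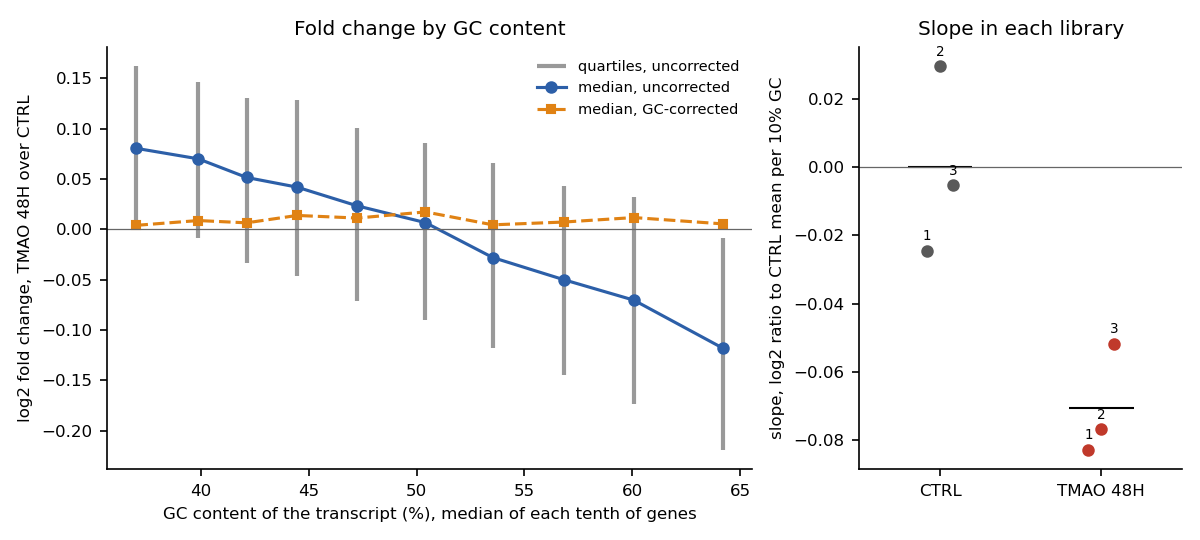
Left, median log2 fold change at 48H over CTRL (y axis) in each decile of 13861 genes by GC content (x axis, %), before (blue, grey bars from the lower to the upper quartile) and after (orange) a correction for GC content. The uncorrected medians fall from 0.0804 to -0.118 and the corrected ones stay between 0.00398 and 0.0173. Right, slope of the log2 ratio to the CTRL mean per 10% of GC in each library, numbered by replicate, with the group mean as a line. The reference of a CTRL library is the mean of the other CTRL libraries. The 3 TMAO 48H libraries lie below the 3 CTRL libraries.

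A fit with GC content as an offset in each library took this trend away (r = 0.0136) and called 225 genes (1.53%), 117 higher (0.794%) and 108 lower (0.733%), of which 202 had also been called without it. At any fold, 1023 genes (6.94%) had an adjusted p-value under 0.05 with the correction, 530 higher (3.6%) and 493 lower (3.34%). Genes at the ends of the GC range show the size of the correction. CTXN1, which encodes a small membrane protein of neurons and had the highest GC content of the called genes that fell and passed 50 normalised counts, measured 364, 356 and 369.8 in CTRL and 272, 239.5 and 217 at 48H. Its log2 fold change of -0.58 became -0.43 with the correction, less than 1.4-fold. LMBRD2, a membrane protein gene with the lowest GC content among those that rose, went from 0.49 to 0.39 and was likewise lost. The correction raised the value of EPPK1, a cytoskeletal linker of the plakin family with the highest GC content among those that rose, from 0.58 to 0.73 (adjusted p = 0.0107). DNM3OS, the non-coding host of microRNAs within DNM3 and the gene of lowest GC content among those that fell, went from -0.53 to -0.61.

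Interferon-induced effectors had the highest median and the largest share of called genes that rose of all the lists. Of 51 such genes tested, 19 were called higher (37.3%) and 0 lower, and 36 were higher and 1 lower (PARP12) at an adjusted p-value under 0.05. Over all tested genes, 0.882% were called higher and 5.14% were higher at an adjusted p-value under 0.05. The median log2 fold change of the effectors was 0.441, against 0.00396 over all tested genes. In 42 of the 51 every TMAO 48H library lay above every CTRL library, as in 14.7% of all tested genes. With the GC correction 19 were called and the median was 0.407. Without TMAO 48H replicate 3 the count was 21.

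A log2 fold change (log2 change in brackets) is given ± its standard error from the fit. IFI44L, an antiviral protein induced by interferon, measured 43.8, 42.8 and 26.2 in CTRL and 144, 139 and 96.7 at 48H. Its levels were 3.36-fold higher after treatment (log2 change 1.75 ± 0.229, adjusted p = 0.000528), the largest rise by the rule for named genes. MX2, a dynamin-like GTPase that blocks the nuclear import of viruses, measured 38.9, 35.8 and 24.2 in CTRL and 97.8, 109 and 66.7 at 48H (log2 change 1.47 ± 0.255, adjusted p = 0.00334). MX1, its relative that acts on viral nucleoproteins, measured 596, 558 and 387 in CTRL and 1417, 1597 and 1118 at 48H (1.42 ± 0.150, adjusted p = 9.48e-05). In these 3 genes the same libraries were lowest in each group: CTRL replicate 3 and TMAO 48H replicate 3. That order was common, since CTRL replicate 3 was the lowest control in 16 and TMAO 48H replicate 3 the lowest treated library in 18 of the 25 interferon-related and antigen-processing genes called.

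The ubiquitin-like protein ISG15 and its ligase rose together. ISG15, which is both conjugated to proteins and secreted, measured 737, 801 and 715 in CTRL and 1434, 1219.7 and 1146 at 48H (log2 change 0.75 ± 0.0794, adjusted p = 9.48e-05). HERC5, the main ligase for ISG15, measured 42.8, 34.8 and 42.3 in CTRL and 95.5, 100.4 and 88.6 at 48H (1.24 ± 0.168, adjusted p = 0.000645). For both genes the lowest treated library was well above the highest control. Among sensors of the OAS family, which make the second messenger that activates RNase L, OAS2 measured 629.8, 579 and 466 in CTRL and 1057, 1228 and 1026 at 48H (0.98 ± 0.0986, adjusted p = 7.33e-05). OASL, a family member without that enzymatic activity, rose from 94.4, 112 and 97.7 to 222, 199.9 and 184 (0.99 ± 0.129). The groups did not overlap in either gene.

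Proteins that act at membranes or on RNA showed the same pattern. IFITM1, which hinders the fusion of viruses with the cell membrane, measured 97.3, 139 and 116 in CTRL and 278, 255 and 217 at 48H (log2 change 1.09 ± 0.151, adjusted p = 0.000787), although IFITM genes are near-identical and may share reads. BST2 (tetherin), which holds budding virions at the cell surface, measured 102, 113 and 66.5 in CTRL and 189, 239 and 151 at 48H (1.04 ± 0.206, adjusted p = 0.00696). Its replicates were scattered in both groups, and the lowest treated library was above the highest control, as in each gene called higher. IFIT1, which binds viral RNA lacking a host cap, measured 254, 249.9 and 193 in CTRL and 532, 437 and 408 at 48H (0.98 ± 0.126, adjusted p = 0.000435). IFI6, a small protein of mitochondria and endoplasmic reticulum, measured 1072, 1090.1 and 1098 in CTRL and 2072, 1836 and 1618 at 48H (0.76 ± 0.0784). The controls of IFI6 were nearly equal, and the treated libraries differed more from each other than the controls did.

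**Figure D3:**
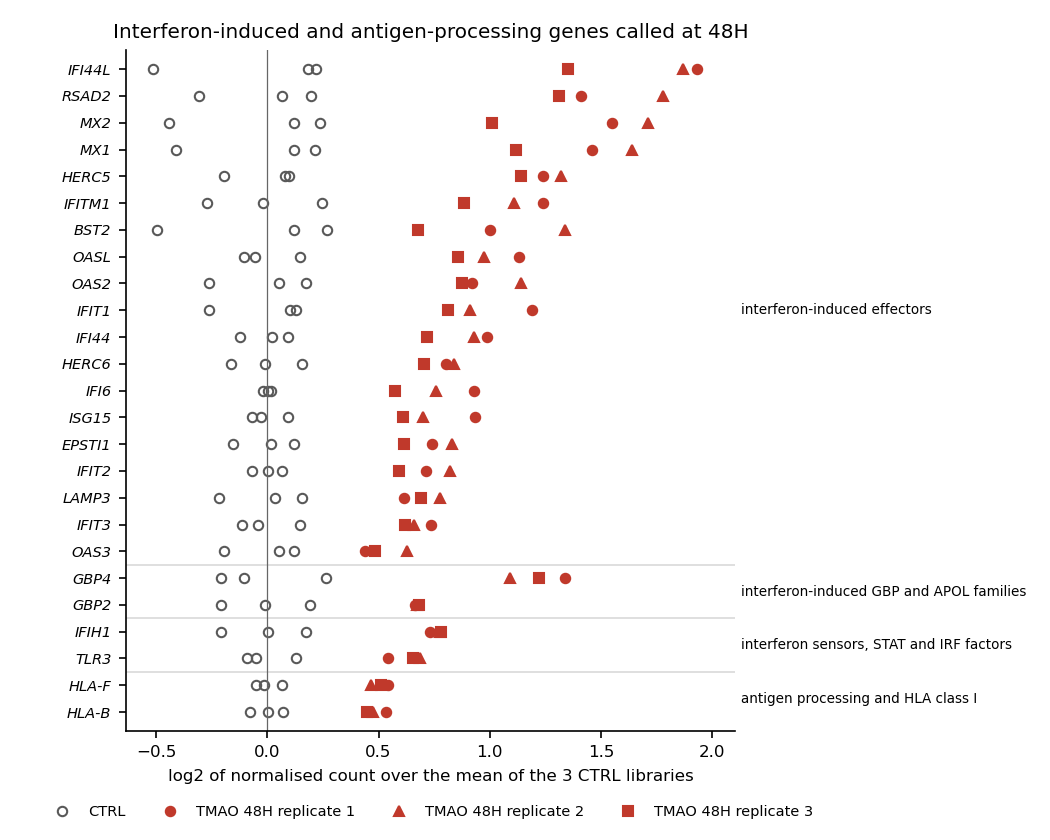
Log2 ratio of each library's normalised count to the mean of the 3 CTRL libraries (x axis, pseudocount 0.5) for the 25 called genes of the interferon and antigen-processing lists, ordered by list and then by size of change. Open circles are CTRL libraries, which lie between -0.513 and 0.27, and red symbols are the TMAO 48H replicates, which lie between 0.437 and 1.93.

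The ISRE was looked for in promoters to see what the genes that rose had in common besides their list. The 250 bases before the annotated start were available for 11188 of the tested genes (75.9%), from RefSeq on GRCh38.p14. The element, searched for as TTTC and a second TTTC with any 2 bases between (on either strand), occurred in 271 of them (2.42%), in 18 of 100 promoters of genes called higher and in 0 of 84 of genes called lower. Among interferon-induced effectors it occurred in 21 of 40 promoters (52.5%), namely 11 of the 14 called genes and 10 of the 26 not called. Outside the interferon lists, 6 of 83 genes called higher held it (7.23%). A longer form with AG before the first TTTC, of which every match is also a match to the shorter one, occurred in 26 promoters (0.232%) and in 12 of the 100 of genes called higher. Sites for NF-kB (GGGA and CC with any 4 bases between, 27.8% of all promoters, 39.0% for genes called higher and 28.6% for genes called lower) and for AP-1 (TGANTCA, 3.9% and 4.0%) were searched for in the same way. A match of letters is a description of the promoter and not a site of binding.

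Of the effectors described above, IFI6 and 6 others held a match. None was found for MX1, MX2, OAS2 and OASL, where the promoter either lacked it or was not available. The promoters of the 6 are shown around a match, 5′ to 3′ on the strand of the gene. The match is in capitals (the repeats read GAAA where the match lies on the other strand).
IFI44L, chr1:78620350-78620409, + strand: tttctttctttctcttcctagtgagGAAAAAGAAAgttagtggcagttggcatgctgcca
HERC5, chr4:88457020-88457079, + strand: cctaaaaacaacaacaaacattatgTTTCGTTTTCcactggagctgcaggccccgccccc
IFITM1, chr11:313975-314034, + strand: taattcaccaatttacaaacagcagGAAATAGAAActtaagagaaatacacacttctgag
BST2, chr19:17405720-17405779, - strand: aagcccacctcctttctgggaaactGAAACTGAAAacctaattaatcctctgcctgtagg
IFIT1, chr10:89392495-89392554, + strand: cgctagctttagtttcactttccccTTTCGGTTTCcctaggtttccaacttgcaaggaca
ISG15, chr1:1013365-1013424, + strand: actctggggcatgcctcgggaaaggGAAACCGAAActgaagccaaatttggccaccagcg
The match began 73, 74, 40, 124, 103 and 107 bases before the start in IFI44L, HERC5, IFITM1, BST2, IFIT1 and ISG15, and 1 (IFITM1) to 3 (HERC5) matches were present per promoter. In IFIT1 a second pair of TTTC repeats precedes the one in capitals.

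The genes that receive and pass on an interferon signal moved less than the effectors. Of 26 sensors, STAT and IRF factors, 2 were called higher (IFIH1 and TLR3) and 0 lower, and 6 were higher at an adjusted p-value under 0.05, for a median log2 change of 0.0891. IFIH1 (MDA5), the cytosolic sensor of long double-stranded RNA, measured 299, 336 and 258 in CTRL and 495, 511 and 512 at 48H (log2 change 0.76 ± 0.103, adjusted p = 0.000637). TLR3, the sensor of such RNA in endosomes, measured 181, 176 and 206 in CTRL and 274, 302 and 296 at 48H (0.63 ± 0.101, adjusted p = 0.00194). The treated libraries of both were close together and above all controls. The genes of the interferons IFNB1 and IFNL1 did not pass the expression filter.

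Guanylate-binding proteins, GTPases that coat intracellular pathogens, are counted with the APOL family of lipid-binding proteins: 2 of 9 were called higher (GBP4 and GBP2) and 5 were higher at an adjusted p-value under 0.05 (median 0.328). GBP4 measured 58.4, 75.7 and 54.4 in CTRL and 159, 135 and 147 at 48H (log2 change 1.23 ± 0.155, adjusted p = 0.000388). GBP2 measured 178, 235 and 205 in CTRL and 326, 328 and 330.2 at 48H (0.67 ± 0.108). Unlike in the MX genes, TMAO 48H replicate 3 was not the lowest treated library in either.

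In antigen processing, 2 of 20 genes were called higher (HLA-B and HLA-F) and 9 were higher at an adjusted p-value under 0.05, with 0 lower, and the list had a median of 0.139. HLA-B, a class I molecule that presents peptides to cytotoxic T cells, measured 7926, 8388 and 8801 in CTRL and 12111, 11639 and 11416 at 48H (0.49 ± 0.0443, adjusted p = 4.08e-05). HLA-F, a non-classical class I molecule, measured 349, 358 and 379 in CTRL and 527, 501 and 517 at 48H (0.51 ± 0.0710). Both changes were small, uniform and barely past 1.4-fold, and class I genes resemble each other enough for reads to be split between them. The call of HLA-B was lost in 9 of 21 alternatives. Without CTRL replicate 1, 0 genes of the list were called, and 1 was without TMAO 48H replicate 1, without TMAO 24H replicate 1 or by DESeq2. Of 18 complement genes, C2 (38.9, 32.9 and 51.4 in CTRL, 75.7, 83.7 and 67.9 at 48H) and factor B (CFB: 79.8, 72.7 and 63.5 in CTRL, 132, 126 and 97.8 at 48H) were called higher, with adjusted p-values of 0.0184 and 0.0124. Without TMAO 48H replicate 2, 0 of the list were called, and without CTRL replicate 1 or 2 it was CFB alone. C2 and CFB encode the related proteases of the classical and alternative convertases, and C2 overlaps ZBTB12 in the genome.

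Leukocyte adhesion molecules as a list had a median near that of all genes. Of 16 tested, ICAM1 was called higher and 0 lower, 2 were lower at an adjusted p-value under 0.05, and the median log2 fold change was 0.00648. ICAM1, the endothelial ligand of leukocyte integrins, measured 689, 728 and 657 in CTRL and 1130.3, 1276 and 1163 at 48H (0.78 ± 0.0662, adjusted p = 2.09e-05). VCAM1, which binds another integrin and was chosen after its values were seen, measured 35, 33.8 and 34.3 in CTRL and 45.4, 44.0 and 62.1 at 48H. All treated libraries of VCAM1 lay above the controls, but its log2 fold change of 0.55 had a large standard error (0.246) and did not pass (adjusted p = 0.179). E-selectin (SELE) and P-selectin (SELP) did not pass the filter.

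Chemokines changed in both directions among only 8 expressed genes. CCL2, which attracts monocytes, measured 214, 255 and 229.7 in CTRL and 366, 369.9 and 412 at 48H (log2 change 0.72 ± 0.0947, adjusted p = 0.000580). CXCL16, a membrane-bound chemokine that is also a scavenger receptor, measured 258, 248 and 197 in CTRL and 339.9, 387 and 315 at 48H (0.57 ± 0.118, adjusted p = 0.00902), and its gene overlaps MED11 and ZMYND15. CXCL12, the ligand of CXCR4 that retains progenitor cells, was lower: 3088, 2999 and 2729 in CTRL against 2084, 1800.1 and 2071 at 48H (-0.57 ± 0.0629, adjusted p = 0.000145). The groups were separate in all 3 genes.

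Among NF-kB subunits and inhibitors, 1 of 27 was called higher. This was RELB, the partner in the non-canonical pathway, at 193, 152 and 181 in CTRL and 284, 284 and 234 at 48H (log2 change 0.61 ± 0.123, adjusted p = 0.00791). Of 28 TNF superfamily ligands and receptors, 2 were called in each direction, and TNF itself did not pass the filter. Without CTRL replicate 2 or without TMAO 48H replicate 2, the list held 2 called genes in place of 4. The death receptor FAS (0.51, adjusted p = 0.0162) and the ligand of GITR, TNFSF18 (0.53, adjusted p = 0.0164), were higher. With the GC correction they fell short of 1.4-fold, at 0.45 and 0.46. FAS also overlaps ACTA2, an actin gene that rose as well. TNFSF15, a ligand made by endothelium that restrains vessel growth, measured 293, 279.8 and 246 in CTRL and 142, 157 and 212 at 48H (-0.68 ± 0.141, adjusted p = 0.00895). Its receptor TNFRSF25, which overlaps ESPN, also fell, from 516, 429 and 473 to 305, 295 and 353 (-0.57 ± 0.0974). Both remained lower with the GC correction, at -0.72 and -0.50.

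Interleukins and their receptors held 2 called genes among 31, both higher, and 8 were higher and 2 lower at an adjusted p-value under 0.05 (median 0.189). IL32, a cytokine of immune and stromal cells, measured 171, 153 and 189 in CTRL and 237, 287 and 251 at 48H (0.59 ± 0.115, adjusted p = 0.00612). IL22RA1, a receptor chain for IL-22, measured 22.4, 31.9 and 31.2 in CTRL and 46.6, 50.2 and 46.0 at 48H (0.74 ± 0.213, adjusted p = 0.0427). Its call was lost in 15 of 21 alternatives with the same thresholds. IL6 measured 66.2, 70.7 and 83.6 in CTRL and 94.3, 66.9 and 112 at 48H, so that the groups overlapped (0.30, adjusted p = 0.367).

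In the lists of the extracellular matrix, the called members were lower at 48H, with the exception of 1 protease, while the median of proteoglycans and of integrins was near that of all genes. Of 20 fibrillar and associated collagens, 5 were called lower and 0 higher (COL6A3, COL14A1, COL1A2, COL1A1 and COL5A1). At an adjusted p-value under 0.05, 8 were lower and 2 were higher (COL8A1 and COL8A2, the network-forming collagens of vessel walls). The median log2 fold change of the list was -0.228, or -0.131 with the GC correction, under which 4 remained called. Without CTRL replicate 1 or without TMAO 48H replicate 1, 3 were called. In bulk RNA, fewer cells that make a transcript and less of it per cell cannot be told apart.

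COL6A3, a chain of the beaded-filament collagen VI, measured 146, 133 and 102 in CTRL and 36.1, 34.3 and 33.4 at 48H. It fell to 27.3% of its control level (log2 change -1.87 ± 0.156, adjusted p = 2.02e-05), with treated libraries much closer to each other than the controls were. COL1A2, a chain of collagen I, measured 9646, 9419.9 and 7882 in CTRL and 4259, 3916 and 4604 at 48H (-1.08 ± 0.0772, adjusted p = 5.95e-06). COL1A1, the other chain of the same trimer, fell less, from 21762, 21107 and 19009 to 12293, 12936 and 13556 (-0.67 ± 0.0574). The groups did not overlap in any of these. COL5A1, a chain of the collagen that starts fibrils, was at the threshold (-0.49 ± 0.0601, adjusted p = 0.000339) and at -0.40 with the GC correction. COL14A1, a fibril-associated collagen chosen after its values were seen, had low counts, with 36.0, 20.9 and 34.3 in CTRL and 9.31, 13.2 and 16.1 at 48H (-1.23 ± 0.306), and its call was lost in 8 of 20 alternatives.

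In the basement membrane list, 1 of 20 genes was called lower, while 6 were lower and 1 higher at an adjusted p-value under 0.05 (median -0.131). NID2, a nidogen that links laminin to collagen IV, measured 1517, 1488 and 1282 in CTRL and 636, 731 and 731 at 48H (log2 change -1.03 ± 0.0707, adjusted p = 4.36e-06), and it overlaps RTRAF. Collagen-processing enzymes shifted together by small amounts. At an adjusted p-value under 0.05, 13 of 26 were lower and 0 higher, against 5.29% lower over all tested genes. With the GC correction 10 were lower, against 3.34%. In 18 every treated library was below every control, as in 13.0% of all tested genes. Only ADAMTS14, a protease that trims procollagen, passed 1.4-fold, at 64.2, 71.7 and 62.5 in CTRL and 31.4, 44.9 and 33.4 at 48H (-0.84 ± 0.191, adjusted p = 0.0139). Without CTRL replicate 2, 0 of the list were called, against 2 without CTRL replicate 3 and 3 without TMAO 48H replicate 3.

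Matricellular and elastic fibre proteins included 6 genes called lower and 0 higher among 33, with 13 lower and 4 higher at an adjusted p-value under 0.05 (median -0.132). TGFBI, an adhesive matrix protein induced by TGF-β, measured 28422, 27756 and 23362 in CTRL and 12269, 12438 and 13563 at 48H (log2 change -1.06 ± 0.0694, adjusted p = 3.48e-06). LTBP1 and LTBP2 belong to the family of latent TGF-β binding proteins of microfibrils. LTBP1 fell from 4156, 4079.8 and 3611 to 2456, 2499 and 2633 (-0.64 ± 0.0527). LTBP2 fell from 6476, 6329 and 5356 to 3631, 3941 and 4131 (-0.63 ± 0.0704). SPOCK1, a testican proteoglycan, fell from 1957, 2036 and 1754 to 1147, 1313 and 1319 (-0.60 ± 0.0648). In all 4 genes CTRL replicate 3 was the lowest control and still above the highest treated library.

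Proteoglycans as a list had a median near that of all genes (-0.0494 over 23 genes, 0.0171 with the GC correction), and the 2 genes called in it, the binding partners versican and HAPLN1, fell. Versican (VCAN), a large hyaluronan-binding proteoglycan, measured 845, 812 and 670.0 in CTRL and 378, 402 and 449.9 at 48H (log2 change -0.92 ± 0.0928, adjusted p = 7.47e-05). HAPLN1, the link protein that fixes versican to hyaluronan, measured 1514, 1549 and 1499 in CTRL and 897, 829.6 and 868 at 48H (-0.81 ± 0.0486, adjusted p = 2.07e-06). The replicates of HAPLN1 were close together in both groups. Of 20 integrins only ITGA11, the α chain of a collagen receptor, was called: it fell from 1852, 1755 and 1356 to 946, 1056 and 1155 (-0.65 ± 0.101, adjusted p = 0.00164).

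Of 34 matrix proteases and inhibitors, 3 were called lower and 1 higher, and 9 were lower and 1 higher at an adjusted p-value under 0.05. MMP2, the gelatinase that cleaves collagen IV and denatured collagens, measured 18315, 17830.0 and 15331 in CTRL and 7528, 8026 and 8024 at 48H (log2 change -1.13 ± 0.0655, adjusted p = 2.07e-06). No treated library of MMP2 came near any control. Among metalloproteases with thrombospondin motifs, ADAMTS15, which cuts versican, fell from 1028, 1051 and 896 to 670.5, 649 and 632 (-0.61 ± 0.0654). ADAMTS10, a protease associated with fibrillin, was lower too (-0.60), but with the GC correction its -0.48 was under 1.4-fold. ADAMTS12 moved the other way, at 132, 127 and 94.7 in CTRL and 161, 196 and 208 at 48H (0.67 ± 0.145, adjusted p = 0.0109).

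**Figure D4:**
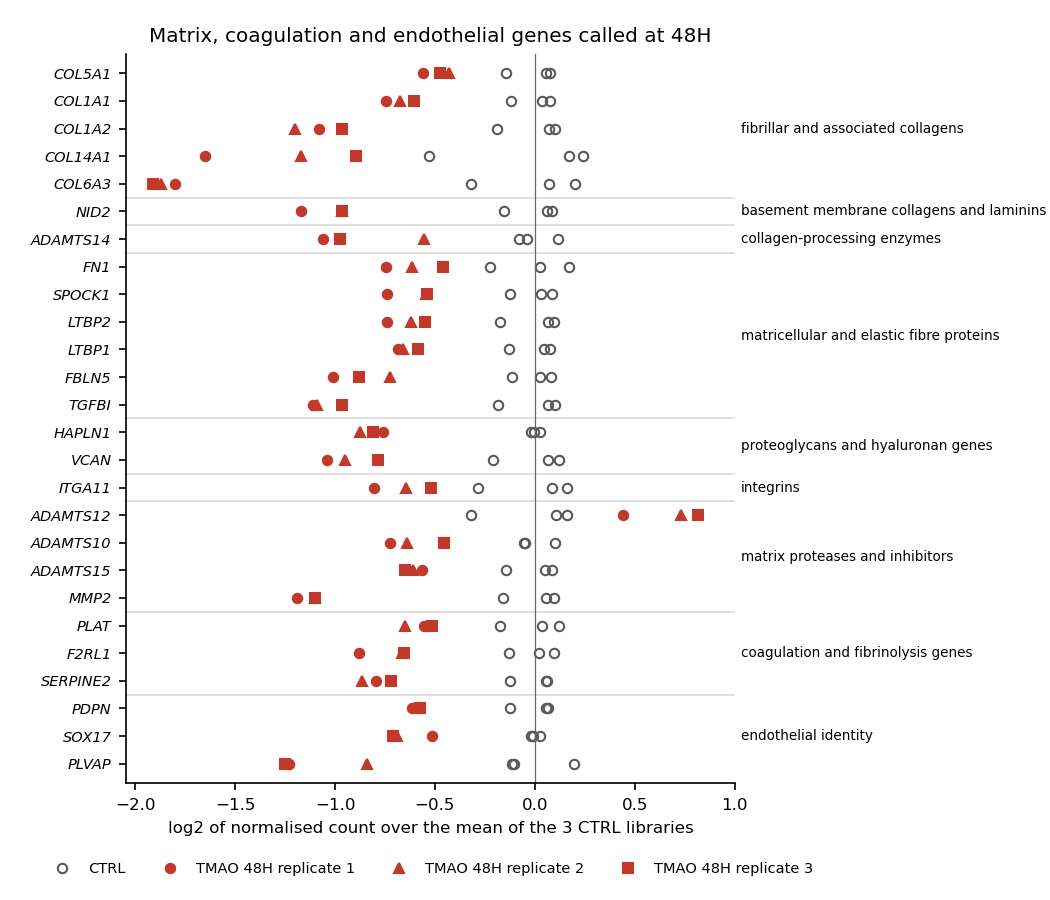
Log2 ratio of each library's normalised count to the mean of the 3 CTRL libraries (x axis, pseudocount 0.5) for 26 called genes of the matrix, coagulation and endothelial lists, by list. Open circles are CTRL libraries (-0.529 to 0.241) and red symbols the TMAO 48H replicates (-1.91 to 0.815); in 25 genes the treated libraries lie to the left of the controls and in ADAMTS12 to the right.

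The replicates had an order here as well. Of the 25 plotted matrix, coagulation and endothelial genes that fell, CTRL replicate 3 was the lowest control in 21, that is, the control closest to the treated libraries, and TMAO 48H replicate 1 the lowest treated library in 17. Over all 135 genes called lower the corresponding numbers were 66 and 74. Markers of fibroblasts and mesenchymal cells moved with the matrix genes: 4 of 9 tested were called lower (44.4%), and THY1, chosen after its values were seen, was higher (0.47, adjusted p = 0.00147) and called with the GC correction (0.53). Their summed level was 29980 to 34930 in CTRL and 19620 to 21410 at 48H, but COL1A1 and COL1A2 made up most of it. These measured 21762 and 9646 of 34930 in CTRL replicate 1, and 12293 and 4259 of 19620 in TMAO 48H replicate 1. The fall of the sum thus mostly repeats that of these collagens. Of this list of 13 markers, 9 passed the filter, and the other 4 had 0 to 7 counts per library, with DCN and DPT at 0 in all 6 libraries. The list also holds COL1A1, COL1A2 and PI16, which are counted elsewhere here. The markers' part in the matrix result was not tested. PI16, a secreted protein of the peptidase inhibitor family, measured 149, 165 and 137 in CTRL and 48.9, 31.7 and 42.6 at 48H (log2 change -1.88 ± 0.166, adjusted p = 3.03e-05). FAP, a cell-surface protease, measured 112, 128 and 104 in CTRL and 74.5, 64.3 and 70.2 at 48H (-0.72 ± 0.138, adjusted p = 0.00556).

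Of 36 TGF-β ligands, receptors and targets, 4 were called lower and 0 higher, among them TGFBI, LTBP1 and LTBP2, which are also matrix proteins described above. At an adjusted p-value under 0.05, 10 were lower and 3 higher, with a median of -0.0893. The ligand TGFB1 itself measured 6354, 6951 and 6111 in CTRL and 5036, 4984 and 5348 at 48H, a fall that passed the test but not 1.4-fold (log2 change -0.34, adjusted p = 0.00217). CTGF, a matricellular target of TGF-β and of mechanical signals, measured 43496, 43753 and 40998 in CTRL and 46625, 48082 and 50805 at 48H. Its treated libraries were all above the controls, but the difference passed neither threshold (0.18, adjusted p = 0.0618). With the GC correction its adjusted p-value was under 0.05 (0.20, adjusted p = 0.0468), but the change was still under 1.4-fold. The contractile actin ACTA2, a smooth muscle marker, rose from 123, 136 and 119.9 to 186, 224 and 222 (0.74 ± 0.118, adjusted p = 0.00194). The summed level of 8 smooth muscle markers was 10010 to 10600 in CTRL and 10460 to 11090 at 48H, so that the groups overlapped.

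Genes of endothelial identity were lower by small amounts. Of 34, 3 were called lower (PLVAP, SOX17 and PDPN) and 0 higher, while 16 were lower and 0 higher at an adjusted p-value under 0.05 (13 with the GC correction), and the median log2 change was -0.187. PLVAP, the protein of the diaphragms of fenestrae and caveolae, measured 117, 145 and 118 in CTRL and 53.5, 70.5 and 52.9 at 48H (-1.10 ± 0.153, adjusted p = 0.000847). SOX17, a transcription factor of arterial endothelium, measured 801, 828 and 808 in CTRL and 568, 503 and 497 at 48H (-0.64 ± 0.0649, adjusted p = 7.89e-05). PDPN, a membrane glycoprotein typical of lymphatic endothelium, fell from 3169.6, 3149.9 and 2777 to 1979, 2013 and 2038 (-0.59 ± 0.0494). All treated libraries of these genes were below all controls. CDH5 (-0.26, adjusted p = 0.0181) and the receptor TIE1 (-0.26, adjusted p = 0.00569) passed the test without reaching 1.4-fold, and TIE1 did not pass with the GC correction (-0.18, adjusted p = 0.0548). The summed level of the 13 endothelial markers was 100100 to 111300 in CTRL and 90500 to 98190 at 48H.

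Of 21 coagulation and fibrinolysis genes, 4 were called lower and 0 higher, and the median log2 change was -0.149. Among those called were an activator, an inhibitor and a receptor. PLAT, the tissue plasminogen activator, measured 3174, 3364 and 2738 in CTRL and 2103, 1970.1 and 2167 at 48H (-0.57 ± 0.0657, adjusted p = 0.000200). SERPINE2, an inhibitor of thrombin and plasminogen activators, measured 8041, 8061 and 7106 in CTRL and 4463, 4243 and 4692 at 48H (-0.79 ± 0.0548, adjusted p = 4.36e-06). F2RL1, the protease-activated receptor PAR2, measured 833, 790.5 and 712 in CTRL and 423, 491 and 495 at 48H (-0.73 ± 0.0764). In these 3 genes every treated library was below every control.

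Among 22 genes of endothelin, nitric oxide and prostanoids, 3 were called lower and 0 higher. PTGIS, the prostacyclin synthase, measured 299.8, 279.8 and 249.9 in CTRL and 173, 192 and 165 at 48H (log2 change -0.64 ± 0.0985, adjusted p = 0.00144). PLA2G4B, a cytosolic phospholipase, measured 403, 365 and 438 in CTRL and 169, 153 and 227 at 48H (-1.14 ± 0.138, adjusted p = 0.000302), but it shares its exons with the readthrough gene JMJD7-PLA2G4B. PTGDS, a prostaglandin D synthase, was at 13.6, 21.9 and 11.1 in CTRL and at 3.49, 4.40 and 2.30 at 48H, and its call (-2.12, adjusted p = 0.0261) was lost in 8 of 20 alternatives. The prostacyclin and prostaglandin D synthases and the phospholipase thus had lower transcript levels in each treated library than in any control.

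In VEGF, angiopoietin and Notch signalling, 10 of 29 genes were lower and 1 higher at an adjusted p-value under 0.05 (6 and 2 with the GC correction), and 1 was called in each direction. NRP1, a co-receptor of VEGF and semaphorins, measured 4144, 4129.5 and 3711 in CTRL and 2545, 2667 and 2598 at 48H (log2 change -0.62 ± 0.0477, adjusted p = 1.13e-05). HEYL, a Notch target, measured 51.6, 52.8 and 60.5 in CTRL and 81.5, 91.6 and 85.2 at 48H (0.65 ± 0.165, adjusted p = 0.0247). The groups were separate in both genes, but the call of HEYL was lost in 4 of 21 alternatives.

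Of 34 targets of p53, 6 were called higher and 0 lower (SPATA18, ZMAT3, CDKN1A, CYFIP2, FAS and RRM2B), and 17 were higher and 0 lower at an adjusted p-value under 0.05, as many as with the GC correction, under which 4 were called. Without CTRL replicate 2 the called number was 2, and without CTRL replicate 1 or TMAO 48H replicate 1 it was 3. The median log2 fold change was 0.227. CDKN1A (p21), the inhibitor of cyclin-dependent kinases, measured 6300.3, 6519.9 and 6616 in CTRL and 9644, 9786 and 9651 at 48H (0.58 ± 0.0364, adjusted p = 2.51e-06). ZMAT3, an RNA-binding protein, measured 712, 782 and 835 in CTRL and 1192, 1266 and 1193 at 48H (0.65 ± 0.0642, adjusted p = 7.12e-05). CDKN1A had the smallest standard error of the called genes named here. RRM2B, a ribonucleotide reductase subunit for DNA repair, measured 1109, 1097 and 1256 in CTRL and 1753, 1689 and 1434 at 48H (0.49) and was under 1.4-fold with the GC correction (0.42). CYFIP2, a component of the actin-regulating WAVE complex, rose from 414, 344 and 316 to 513, 502 and 517 (0.51 ± 0.0947), and its gene overlaps FNDC9. SPATA18, a regulator of mitochondrial quality chosen after its values were seen, was scattered at 92.0, 57.2 and 84.0 at 48H against 48.7, 45.8 and 49.4 in CTRL. Its call (0.69, adjusted p = 0.0424) was lost in 17 of 21 alternatives, among them the GC correction (0.66, adjusted p = 0.0617).

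No list of the cell cycle held a called gene. With 1.8% of all tested genes called, an empty list of this size says little. Of 60 genes of mitosis and spindle, 7 were higher and 0 lower at an adjusted p-value under 0.05, but 0 passed with the GC correction, and their median went from 0.0558 to 0.0308. Of 54 genes of DNA replication, 1 was higher and 2 lower. Ribosomal proteins (79 genes, 1 lower) and nuclear subunits of oxidative phosphorylation (75 genes, 0 in either direction) had medians of 0.018 and -0.0075.

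Stress-related lists held few calls, beside 1.8% of all tested genes. DUSP1, the phosphatase that switches off MAP kinases, measured 1899, 2039 and 1821 in CTRL and 2882, 2679 and 3348 at 48H (log2 change 0.63 ± 0.0802, adjusted p = 0.000417). It was the only called gene among 15 MAP kinase feedback inhibitors, of which 5 were higher and 1 lower at an adjusted p-value under 0.05. ATF3, a stress-induced transcription factor, was the only one called among 24 immediate early genes, at 209, 201 and 197 in CTRL and 331, 288 and 307 at 48H (0.61 ± 0.110, adjusted p = 0.00425). Of 39 genes of oxidative stress and NRF2, 1 rose and 1 fell, and the median was 0.00275. GPX3, the secreted glutathione peroxidase, rose from 775, 848 and 779 to 1084, 1195 and 1169 (0.52 ± 0.0606, adjusted p = 0.000216). NOX4, an NADPH oxidase that makes hydrogen peroxide in endothelium, fell from 470.2, 450.0 and 430.2 to 314, 269 and 319.9 (-0.58 ± 0.0822, adjusted p = 0.000932).

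TMAO is itself an organic osmolyte, and of 25 genes of osmolyte, choline and FMO metabolism 1 was called: SLC6A6, the taurine transporter, fell from 3751, 3605 and 3205 to 2131, 2188 and 2566 (log2 change -0.62 ± 0.0726, adjusted p = 0.000229). Of 49 lysosomal genes, the cysteine proteases CTSS and CTSO were called higher, while 3 were higher and 6 lower at an adjusted p-value under 0.05 (median -0.0157). Neither was called with the GC correction or without CTRL replicate 1 or 2. CTSO went from 0.57 to 0.51 with the correction (adjusted p = 0.0584). CTSS measured 205, 207 and 239.8 in CTRL and 309.6, 318 and 293 at 48H (0.50, and 0.44 when corrected). Of 22 kinesins, KIF26B, an atypical member without motor activity, fell from 131, 108 and 95.7 to 29.1, 43.2 and 58.7 (-1.35 ± 0.214, adjusted p = 0.00185).

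No gene was called in the lists of cholesterol synthesis (33 genes, 9 higher and 0 lower at an adjusted p-value under 0.05), fatty acid synthesis (18, 3 higher and 1 lower), the unfolded protein response (31, 2 and 2), glycolysis and hypoxia (37, 0 and 4), IGF-binding proteins (16, 0 and 5), the circadian clock (17, 4 and 0) or metallothioneins (20, 2 and 0). Lists of this size would hold few calls at the share of 1.8% called over all tested genes. Cholesterol genes had a median log2 fold change of 0.0961, or 0.114 with the GC correction, with 8 still higher. In the clock list, NR1D2, a nuclear receptor that represses clock genes, measured 2607, 2528 and 2622 in CTRL and 2992, 3212 and 2887 at 48H (0.23, adjusted p = 0.00612). ARNTL2, a partner of CLOCK, measured 2218, 2096 and 2236 in CTRL and 2711, 2689 and 2560.3 at 48H (0.28, adjusted p = 0.00236). Both were separate between groups and well under 1.4-fold.

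**Figure D5:**
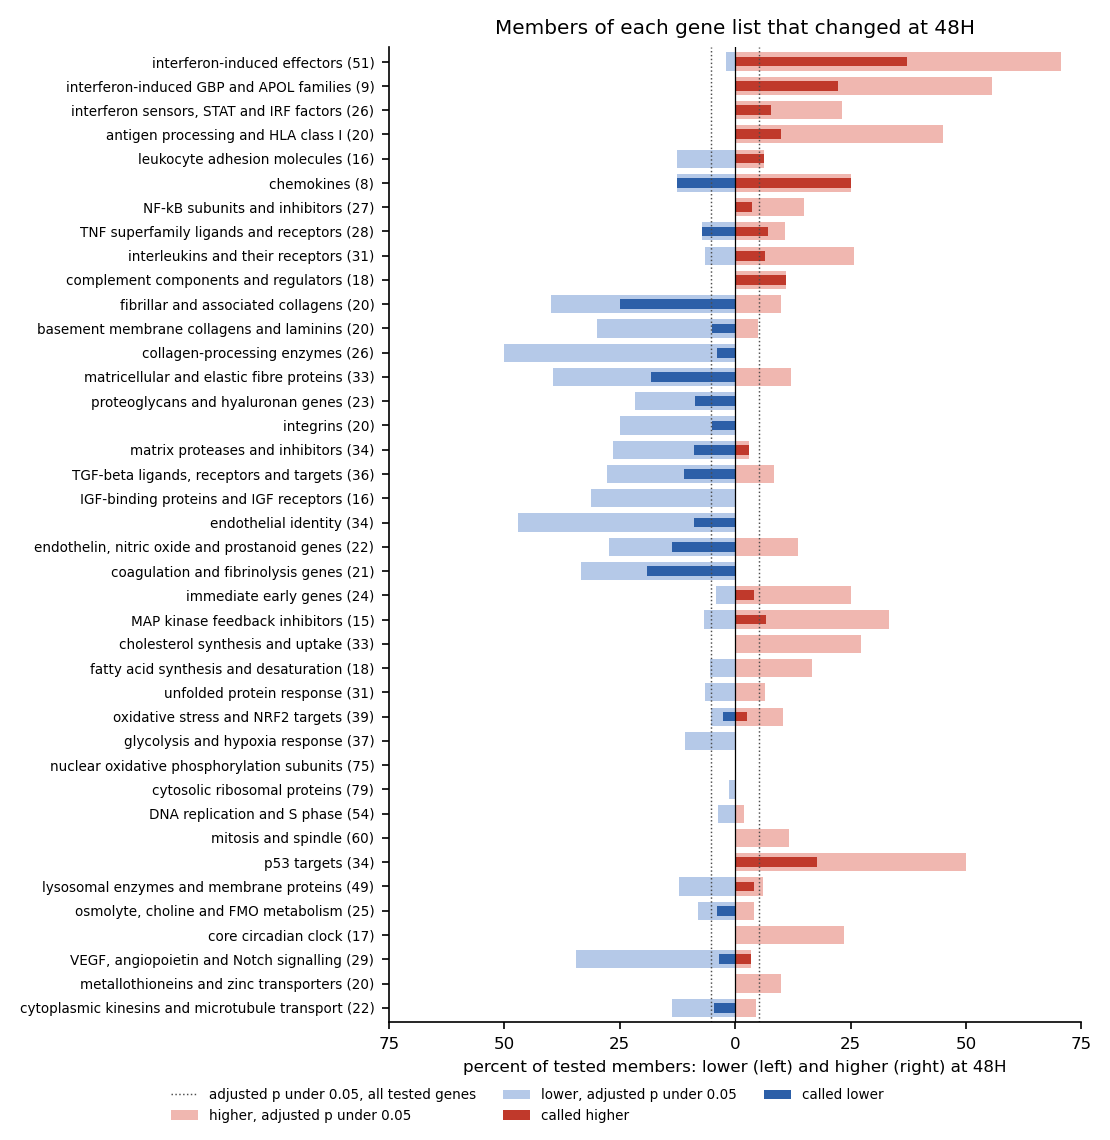
Percent of the tested members of each gene list (number in brackets) that were higher (right) or lower (left) at 48H, with called genes in dark and genes that passed the test alone in light colour. Dotted lines mark the share of all tested genes with an adjusted p-value under 0.05 (5.14% higher, 5.29% lower); 37.3% of interferon-induced effectors were called higher and 5 of 20 fibrillar collagens called lower.

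The lists covered 86 of the 265 called genes, and the other 179 were in none. Among the latter, the rule for named genes gave several large falls. RNASE1, a secreted ribonuclease of endothelium, measured 945, 978 and 879 in CTRL and 505, 443 and 506 at 48H (log2 change -0.95 ± 0.0701, adjusted p = 7.74e-06). SLCO2A1, the prostaglandin transporter, measured 1139.9, 1127 and 998 in CTRL and 596, 641 and 639.8 at 48H (-0.80 ± 0.0636, adjusted p = 1.52e-05). MYLK2, a myosin light chain kinase known from skeletal muscle, measured 339, 334 and 341 in CTRL and 135, 177 and 159.9 at 48H (-1.10 ± 0.101, adjusted p = 4.24e-05). In all 3 the controls were close together, with the treated libraries well below. SLC25A34, a mitochondrial carrier, fell from 63.3, 62.7 and 76.6 to 24.4, 33.5 and 44.9 (-0.98 ± 0.223, adjusted p = 0.0148). The transcription factor KLF12, a repressor, rose from 115, 101 and 107 to 189, 191 and 216 (0.89 ± 0.124, adjusted p = 0.000855).

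The fall with the largest log2 fold change by the same rule was the least certain. MINOS1-NBL1, a readthrough of 2 neighbouring genes, measured 202, 237 and 191 in CTRL and 106, 38.8 and 16.1 at 48H (-1.98 ± 0.550, adjusted p = 0.0376). Its treated libraries differed from each other more than in any other named gene that fell, it overlaps both parent genes, and its call was lost in 7 of 21 alternatives, among them the GC correction (-1.93, adjusted p = 0.0560).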

How the data were processed

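RNA sequencing was analysed for 9 libraries of HMEC-1 in 3 labelled groups (CTRL, TMAO 24H and TMAO 48H) with 3 replicates each. The authors trimmed the reads (Trim Galore, per the processing notes), ran the nf-core pipeline for RNA sequencing, and deposited an estimated count for each gene and library without normalisation. The quantifier, genome build, annotation and strandedness are not given in the sources used here. These counts were first rounded to integers.

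Genes were filtered with filterByExpr, scaled by TMM and fitted with the quasi-likelihood test of edgeR 4.0.16 in R 4.3.3 (glmQLFit with legacy = FALSE) on all 9 libraries, which share one estimate of the spread (biological coefficient of variation 0.0744). The p-values were adjusted by Benjamini-Hochberg over 14740 genes. For a single gene, exact permutation of 3 against 3 libraries has a smallest p of 0.1. GC content and length came from the longest GENCODE 29 transcript of each gene, and genes without a value were left uncorrected.

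The comparison, gene lists, motifs and rule for named genes were chosen with earlier results of these data known. The rule names the 12 largest rises and falls among called genes with at least 50 normalised counts and no overlap between groups, up to 4 called genes of each list by p-value (or the 2 most abundant where none was called), the genes the study names, the 10 smallest p-values and the GC extremes. The text describes a selection of them. Alternatives were DESeq2 1.42.0, other scalings, filters and thresholds, a replicate block, GC and length corrections, removal of ribosomal RNA genes and omission of each library. The fit was tested on simulated counts with known changes. The authors' own gene lists, metabolite and RT-qPCR data were not analysed here. One called gene is not reported here.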

Additional observations from a re-analysis of the deposited data

Results flagged for a closer look

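The levels at 48H and at 24H of TMAO were compared directly with edgeR's quasi-likelihood test for the 109 genes named here, since both time-points share the CTRL libraries. Of these, 74 differed by at least 1.4-fold at an adjusted p under 0.05 over all genes tested, with 34 higher and 40 lower at 48H than at 24H. The values below are log2 changes from 24H to 48H, and the adjusted p-values of the 74 genes lay between 1.69e-06 and 0.0443. The genes were named mostly for their change at 48H, so that their number says nothing of the remaining genes. TMAO 24H replicate 1 held a larger share of ribosomal RNA (31.5%) than the other libraries. Without it 69 of the 74 still differed, and C2, CXCL16, SLC6A6, EPPK1 and SEMA3G no longer did. With the GC correction 71 did, all but ADAMTS10, SLC6A6 and UNC5B. Without TMAO 48H replicate 3 it was 72, all but C2 and SEMA3G.

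Most interferon-stimulated genes named here were among the 74 and higher at 48H than at 24H, with IFI44L by 2.4, MX2 by 2.1 and MX1 by 1.91. HERC5 and BST2 were each higher by 1.45, GBP4 by 1.29, OASL by 1.25, IFITM1 by 1.22 and OAS2 by 1.19. ISG15 was higher by 1.12, the RNA sensor IFIH1 by 1.06, IFIT1 by 1.05 and IFI6 by 0.972. Against CTRL, IFI44L, MX2 and MX1 stood at -0.65, -0.63 and -0.49 at 24H, where none of them was called, and at 1.75, 1.47 and 1.42 at 48H. The class I molecules HLA-F and HLA-B were higher by 0.596 and 0.549. Among genes of inflammation, IL6 was higher by 1.1, the chemokine CCL2 by 0.906, the adhesion molecule ICAM1 by 0.846, RELB of the NF-κB family by 0.759 and the complement genes C2 and CFB by 0.755 and 0.636. CASP1 was higher by 0.715, CD274 by 0.663 and CXCL16 by 0.526, while the chemokine CXCL12 was lower by -0.601. IL6 measured -0.80 at 24H and 0.30 at 48H against CTRL and was called at neither.

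Most matrix genes named here, chosen mostly for their fall at 48H, were lower at 48H than at 24H. Outside the 74 genes, COL5A1 changed by -0.363 and ADAMTS12 by 0.461, both under 1.4-fold (adjusted p = 0.00213 and 0.0720 in the same test). The peptidase inhibitor PI16 changed by -2.21, COL6A3 by -2.15, COL14A1 by -1.35, COL1A2 by -1.06 and COL1A1 by -0.595. The gelatinase MMP2 changed by -1.18, TGFBI by -1.15, the basement membrane gene NID2 by -1.07, the proteoglycan VCAN by -1.02 and its linker HAPLN1 by -0.79. Of the ADAMTS proteases, ADAMTS14 changed by -1.0, ADAMTS15 by -0.826 and ADAMTS10 by -0.511. LTBP1 and LTBP2, of the family of latent TGF-β binding proteins, changed by -0.733 and -0.609. SPOCK1 changed by -0.693, the collagen receptor ITGA11 by -0.561 and the protease FAP by -0.855. PDPN changed by -0.689 and the non-coding DNM3OS by -0.599. ACTA2 and CTGF were instead higher, by 0.544 and 0.73, and against CTRL CTGF measured -0.55 at 24H (adjusted p = 0.0030), past both thresholds, and 0.18 at 48H, where it was not called.

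Other genes, many of them named for their fall at 48H or chosen after their values were seen, differed as follows. PLVAP, of the diaphragm of endothelial fenestrae, changed by -1.18, RNASE1 by -0.884, the prostacyclin synthase PTGIS by -0.865, the lipase LIPG by -0.748 and the transglutaminase TGM2 by -0.716. The protease inhibitor SERPINE2 changed by -0.75, the receptor F2RL1 by -0.713, the plasminogen activator PLAT by -0.593 and the prostaglandin transporter SLCO2A1 by -0.66. NRP1 changed by -0.696, SEMA3G by -0.599, UNC5B by -0.504, AQP1 by -0.668, ASS1 by -0.666, the NADPH oxidase NOX4 by -0.654 and the taurine transporter SLC6A6 by -0.488. The Notch target HEYL was higher by 0.873. Among stress genes, ATF3 was higher by 0.671 and DUSP1 by 1.23, the latter at -0.60 at 24H against CTRL (adjusted p = 0.0106), past both thresholds, and at 0.63 at 48H. Of p53 targets, ZMAT3 was higher by 0.684, CYFIP2 by 0.555 and CDKN1A by 0.55. Of the remaining genes, KIF26B changed by -1.24, MYLK2 by -1.19 and PLA2G4B by -0.637, while KLF12 was higher by 0.878 and EPPK1 by 0.692.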

How the results depend on the processing

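Of the 265 genes called, 116 were called under all 21 alternatives with the same thresholds. The threshold moved the count most. Testing against a 1.4-fold change left 23 genes, 7 higher and 16 lower, with 16 list members and 19 named genes. Without a fold threshold there were 1537 (757 higher, 780 lower, 293 list members), and at 2-fold, a threshold chosen after seeing the data, 46 (20 higher, 26 lower, 19 list members, 20 named genes). Leaving out one library gave 78 (TMAO 48H replicate 2) to 131 genes higher and 109 (TMAO 48H replicate 2) to 208 (TMAO 48H replicate 3) lower, and 79 were higher without CTRL replicate 2. DESeq2 called 232, of which 213 were shared. The correlation across genes of log2 change with GC content was -0.0826 without a filter, -0.283 with at least 10 counts in every library, and -0.21 to -0.154 with one library left out. It was 0.0136 with the GC correction and 0.0131 with that and length, which remove it by construction, and 0.0923 with transcript length in place of GC. With a single TTTC in place of the interferon motif, the share among promoters of genes called higher became 87.0%. It was 77.8% among all tested promoters and 78.6% among those of genes called lower. KRT5 moved from -0.999 to 0.0544, KRT14 from -0.941 to 0.122 and EPCAM from -0.855 to 0.153 as TMAO 48H replicate 1 or 3 was left out, and the cause was not tested. With a replicate block 214 genes were called, all shared, and 190 with the block and GC correction. Same-numbered libraries did not deviate together (correlations -0.427 to 0.0324). Such correlations cannot show whether same-numbered cultures were run together, which the labels do not say. Of named genes called, 65 held under every alternative and 32 were lost in at least one.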

Other observations

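Several genes of endothelial function outside the lists were lower at 48H, all chosen after their values were seen. LIPG, the endothelial lipase that hydrolyses phospholipids of HDL, measured 606, 621 and 551 normalised counts in CTRL and 361, 308 and 327 at 48H (log2 change -0.84 ± 0.0838, adjusted p = 7.33e-05). ASS1, which makes the precursor from which arginine is recycled for nitric oxide, measured 689, 747 and 634 in CTRL and 491, 458 and 385 at 48H (-0.63 ± 0.0907, adjusted p = 0.000961). The water channel AQP1 measured 467, 549.5 and 461 in CTRL and 314, 276 and 353 at 48H (-0.65 ± 0.0980, adjusted p = 0.00133). In these 3 genes all treated libraries were below all controls, and the calls held in every alternative with the same thresholds. TGM2, a transglutaminase that crosslinks matrix proteins, fell from 22762, 22403 and 19362 to 14243, 14388 and 14669 (-0.58 ± 0.0575). Of guidance molecules, SEMA3G, a secreted semaphorin of endothelium, fell from 107, 115 and 121 to 60.5, 64.3 and 57.5 (-0.91 ± 0.148). The netrin receptor UNC5B fell from 1277, 1244 and 1136.5 to 799, 843 and 889 (-0.53 ± 0.0619), and with the GC correction its -0.45 was under 1.4-fold.

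Immune-related genes that no interferon list held were higher, again chosen after their values were seen. APOBEC3G, a cytidine deaminase that restricts retroviruses, measured 44.8, 50.8 and 80.6 in CTRL and 109, 104 and 96.7 at 48H (0.82 ± 0.214, adjusted p = 0.0292), with a call lost in 6 of 21 alternatives. CASP1, the protease of inflammasomes, measured 199, 184 and 209 in CTRL and 281, 316 and 305 at 48H (0.61 ± 0.0961, adjusted p = 0.00182). The checkpoint ligand CD274 (PD-L1) rose from 541, 555 and 569 to 757, 794 and 788, just past 1.4-fold (0.49 ± 0.0629) and not past it with the GC correction (0.44). All treated libraries were above all controls in these genes. TXNIP, an inhibitor of thioredoxin, rose from 3110.2, 2907 and 3284.5 to 4622, 4758 and 4246 (0.55 ± 0.0558). MME (neprilysin), a peptidase that degrades vasoactive peptides, rose from 1244, 1232.5 and 1119 to 1755, 1805 and 1713 (0.55 ± 0.0575). KITLG, the ligand of the receptor KIT, rose from 456, 468 and 524 to 688, 708 and 647 (0.50 ± 0.0721), and to 0.43 with the GC correction.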
